A study of Mus musculus with 11 samples.

Results

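Tissue factor, the protein of F3 (also known as CD142), is best known as the cell surface receptor that starts blood coagulation, and it is also used as a surface marker to sort stromal cells of fat. The values below describe F3 and 6 genes set beside it (Fmo2, Clec11a, Gdf10, Chrdl1, Myoc and C1qtnf3) in single cells of mouse perigonadal white adipose tissue (pgWAT), 7 of the 23507 gene rows of the count table. The members were chosen from measured values of these cells, namely their co-detection with F3, their relation to Dpp4 and their levels across the cell classes. Those values are therefore given as a description, with no test. Only the comparison of the sexes, which the rule of choice does not name, was tested. The choice was made with earlier results of these data known, so this comparison may not be free of it either.

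The stromal vascular fraction was taken from adult male and female Pdgfrb-GFP reporter mice on a C57BL6/J background, fed chow. All animals carried the reporter, and CD45-negative cells had been selected before sorting. Cells were sorted by the reporter, by the endothelial surface protein CD31 or by DPP4, and sequenced with Smart-seq2, which reads whole transcripts and counts reads rather than molecules. The table held 3261 cells on 11 plates from 3 male mouse ids (1, 4 and 8) and 4 female mouse ids (2, 3, 5 and 6/7), where 6/7 stands for 2 animals on shared plates. The gates were not the same in every mouse. Plates 172, 129, 131 and 843 (mice 1, 3, 4 and 5) were sorted as positive for the reporter and plate 42 (mouse 6/7) also as CD31-negative, whereas plate 344 (mouse 8) and plate 43 (mouse 6/7) mixed reporter-positive with CD31-positive cells. Reporter-positive cells of mouse 2 were sorted as DPP4-positive (plate 709) or DPP4-negative (plate 875), and plates 171 and 874 (mice 1 and 2) held CD31-positive cells. Each plate held cells of 1 mouse id, so a difference between mice cannot be told apart from one between plates or gates.

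Gene reads per cell ran from 141935 to 3526227, and ribosomal RNA rows took 44.1% of them, with a median per cell from 30.3% in mouse 3 to 68.1% in mouse 1 among the cells described here. CPM, the reads of a gene scaled to a common library total, are therefore relative to gene reads outside the ribosomal RNA rows unless another scale is named. A gene was called positive in a cell at 20 CPM or more. By this limit 2198 cells were Pdgfra-positive, 244, 360 and 159 in mice 1, 4 and 8 and 732, 309, 94 and 300 in mice 2, 3, 5 and 6/7. Pdgfra encodes the receptor that marks fibroblast-like cells, here adipose stem cells (ASC), and 97.5% of the Pdgfra-positive cells fell into clusters with ASC markers. In these cells the ASC markers Pdgfra, Col1a1, Dcn and Lum summed to 20509 to 33880 CPM per mouse, the macrophage markers to 5.13 to 12.03 CPM and the EC (endothelial cell) markers to 5.37 to 66.5 CPM. Epithelial markers stood at or near 0 in females and reached 7.97 CPM in a male. Mesothelial markers summed to 60.7 to 119 CPM in females and 69.1 to 169 CPM in males. Smooth muscle, pericyte and adipocyte markers, which were higher in some mice, are given further below.

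Dpp4 encodes a surface peptidase that marks the interstitial, less committed stromal cells of fat, and the other members are secreted or enzymatic products. Gdf10 is a BMP-like growth factor and Chrdl1 a secreted inhibitor of BMPs. Clec11a encodes osteolectin, a secreted lectin-like growth factor. C1qtnf3 encodes a secreted relative of adiponectin, and Myoc encodes myocilin, a secreted glycoprotein known from the drainage tissue of the eye. Fmo2 is a flavin-containing monooxygenase that oxidises foreign compounds.

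In the GENCODE annotation of GRCm38 (mm10), F3 (ENSMUSG00000028128) lies on the plus strand at chr3:121723537-121735048 and Gdf10 (ENSMUSG00000021943) on the plus strand at chr14:33923587-33937983. Clec11a (ENSMUSG00000004473) is on the minus strand at chr7:44302687-44306902, Chrdl1 (ENSMUSG00000031283) on the minus strand at chrX:143285674-143394262 and C1qtnf3 (ENSMUSG00000058914) on the plus strand at chr15:10952332-10980150. Myoc (ENSMUSG00000026697, plus strand, chr1:162639155-162649693) and Fmo2 (ENSMUSG00000040170, minus strand, chr1:162874317-162898726) share chromosome 1, with 224623 bases and the protein-coding genes Fmo4, Fmo1 and Prrc2c between them. Of the 7 genes only Myoc overlaps another annotated gene, Myocos on the opposite strand, which had no row in the table. The sources used here do not say whether strand was used in the counting.

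RefSeq promoters (GRCm38.p6) were found for 6 of the 7 members, with 2 entries for Fmo2. Bases 250 to 1 before the start are shown for F3, the gene the set is named for, for Gdf10 and C1qtnf3, which were called in opposite directions in the comparison of the sexes below, and for Myoc, the neighbour of Fmo2. Capitals mark matches, on either strand, to the motif TATAAA, the motif CCAAT, the motif GGGCGG, the motif TGACTCA or the motif AGAACA.
F3, chr3:121723287-121723536, plus strand: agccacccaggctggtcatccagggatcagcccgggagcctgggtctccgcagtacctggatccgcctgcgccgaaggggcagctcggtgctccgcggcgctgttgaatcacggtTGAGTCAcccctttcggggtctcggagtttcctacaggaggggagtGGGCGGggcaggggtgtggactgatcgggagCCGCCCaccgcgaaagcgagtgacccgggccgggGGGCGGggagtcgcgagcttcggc
Gdf10, chr14:33923337-33923586, plus strand: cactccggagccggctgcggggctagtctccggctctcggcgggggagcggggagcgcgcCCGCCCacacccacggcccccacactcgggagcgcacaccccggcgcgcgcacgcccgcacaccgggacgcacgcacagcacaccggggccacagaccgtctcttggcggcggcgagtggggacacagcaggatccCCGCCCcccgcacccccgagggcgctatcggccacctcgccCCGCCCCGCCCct
Myoc, chr1:162638900-162639149, plus strand: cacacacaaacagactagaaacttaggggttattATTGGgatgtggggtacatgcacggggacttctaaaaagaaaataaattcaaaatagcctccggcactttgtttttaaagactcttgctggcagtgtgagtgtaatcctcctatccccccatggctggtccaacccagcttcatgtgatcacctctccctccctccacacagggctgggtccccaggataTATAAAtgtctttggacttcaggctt
C1qtnf3, chr15:10952082-10952331, plus strand: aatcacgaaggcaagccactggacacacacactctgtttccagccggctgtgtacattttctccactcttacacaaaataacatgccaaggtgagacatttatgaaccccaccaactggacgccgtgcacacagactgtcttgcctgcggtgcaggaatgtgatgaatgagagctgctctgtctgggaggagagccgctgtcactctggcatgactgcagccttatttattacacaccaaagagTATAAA
The F3 and Gdf10 stretches are rich in G and C (70.0% and 78.8%, against a median of 52.4% over the 32851 promoters of the table) and hold 24 and 35 CG pairs, where the median is 6. F3 holds GGGCGG 3 times and TGACTCA once, 135 to 129 bases before the start, and Gdf10 holds GGGCGG 4 times, the last 2 matches overlapping by 1 base. Myoc (46.8%) and C1qtnf3 (49.2%) each hold TATAAA, 26 to 21 and 6 to 1 bases before the start, and Myoc also holds CCAAT. The minus-strand promoter of Clec11a holds CCAAT and GGGCGG, the first Fmo2 entry none of the motifs and the second AGAACA. In all promoters the share with a match in this stretch was 12.4% for TATAAA, 33.9% for CCAAT, 32.7% for GGGCGG, 4.46% for TGACTCA and 16.1% for AGAACA.

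F3 was found in most Pdgfra-positive cells of every mouse, so it did not set a small subset of them apart. After each cell was thinned to 100000 reads outside ribosomal RNA, 65.3%, 88.3% and 65.03% of cells were F3-positive in males 1, 4 and 8, and 78.96%, 76.5%, 60.9% and 79.5% in females 2, 3, 5 and 6/7. The mean was 73.5% ± 9.93 (SD, n = 7 mice). The lowest share came from mouse 5, with 92 thinned cells and a 95% exact binomial interval of 50.1 to 70.9%. Male 4 stood above all other mice, and the sexes overlapped. Without thinning the mean was 69.8% ± 8.89. The thinning left out 19, 1 and 16 cells of males 1, 4 and 8 and 0, 2, 2 and 3 cells of females 2, 3, 5 and 6/7. Intervals cover the counting of cells only, since cells of 1 mouse are not independent and the spread between mice is left out.

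As a level, F3 had 240, 394 and 233 CPM in males 1, 4 and 8 and 371, 532, 242 and 468 CPM in females 2, 3, 5 and 6/7. Per kilobase of exon, Gdf10 had the highest mean level of the 7 (161 ± 161 CPM per kb, SD over 7 mice), followed by F3 (140 ± 47.7), Myoc (65.1 ± 101), C1qtnf3 (36.7 ± 33.6), Clec11a (27.97 ± 12.7), Chrdl1 (24.4 ± 49.3) and Fmo2 (21.9 ± 14.98). Each neighbour in this order differed from the next by less than the larger of their SDs. The SDs of Myoc and Chrdl1 were larger than their means and that of Gdf10 was about as large, and in each case 1 mouse stood far above the rest (mouse 3 for Myoc, mouse 1 for Gdf10 and Chrdl1).

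Gdf10 was found in about as many cells as F3 (72.5% ± 24.8 after thinning, n = 7), with a wider spread over mice, and the other 5 members in fewer. Gdf10-positive cells made up 95.6%, 99.4% and 94.4% of thinned cells in males 1, 4 and 8 and 72.8%, 54.7%, 36.96% and 53.5% in females 2, 3, 5 and 6/7. The sexes thus did not overlap in this share. For Fmo2 the shares were 41.3%, 61.3% and 53.8% in the males and 23.9%, 12.05%, 10.9% and 24.9% in the females, again without overlap. Clec11a-positive cells were more frequent in females (30.6% to 50%) than in males (13.99% to 22.6%), as were C1qtnf3-positive cells (19.4% to 32.6% against 6.29% to 12%). Chrdl1 was positive in 56.9% of cells of male 1 but 23.1% of male 4 and 9.09% of male 8, the last of these inside the female range of 4.56% to 10.4%. Myoc varied most among females, at 50.5% in mouse 3, 23.8% in mouse 2, 12.1% in mouse 6/7 and 4.35% in mouse 5. In male 8, 0 of 143 thinned cells were Myoc-positive, which allows a share of up to 2.10%.

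Cells on either side of the Pdgfra limit were set side by side, without a test. Of the 74 cells at 20 to 40 CPM of Pdgfra, 58.1% were F3-positive and 70.3% Gdf10-positive, and of the 76 cells at 10 to 20 CPM 30.3% and 39.5%. The first group was 78.4% ASC-like and the second 50%. Among the 830 cells with no Pdgfra read, 1.81% were F3-positive and 2.89% Gdf10-positive, but 14.1% were Fmo2-positive.

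Co-detection with F3 was weak for every member. For each mouse, Spearman's correlation of CPM with F3 was taken over its Pdgfra-positive cells and averaged over the 7 mice with equal weight. The cells of a mouse share plates and gates, except that those of mouse 2 came from a DPP4-positive and a DPP4-negative plate. Its values also hold the difference between these plates. F3 itself correlated with depth at −0.0048 to 0.269, and in counts as sparse as these a weak correlation is no finding. Gdf10 had a mean of 0.168 (range over mice −0.012 to 0.310), Clec11a 0.119 (−0.021 to 0.258) and Fmo2 0.087 (−0.026 to 0.272). Chrdl1 (−0.037), Myoc (−0.015) and C1qtnf3 (−0.0091) lay near 0, each with 2 of 7 mice above 0. Most of the positive values came from females: the mean with Clec11a was 0.195 in females and 0.017 in males, and that with Fmo2 0.159 and −0.0079. As shares, 32.05% of F3-positive and 21.4% of F3-negative cells were Clec11a-positive (means of 7 mice, higher in F3-positive cells of 7 mice). The corresponding shares were 72.9% and 62.7% for Gdf10, 31.6% and 24.2% for Fmo2, 12.5% and 12.02% for Myoc, 18.5% and 18.03% for C1qtnf3 and 12.7% and 15.5% for Chrdl1.

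Over the 15 pairs of the other 6 members the mean correlation had a median of 0.120, against 0.039 over the 6 pairs with F3. The gap lay in the males, with medians of 0.167 and −0.015, while in females they were 0.092 and 0.089. The difference between the sexes was not tested. Fmo2 and Clec11a formed the closest pair (0.265, above 0 in 7 of 7 mice), with 51.1% of Fmo2-positive cells Clec11a-positive against 21.7% of Fmo2-negative cells. Fmo2 and Chrdl1 correlated at 0.409, 0.267 and 0.243 in males 1, 4 and 8 and at −0.014 to 0.147 in females. Myoc-positive cells of females were often C1qtnf3-positive, 35.4% in mouse 2, 42.7% in mouse 3 and 52.9% in mouse 6/7, against 13.5%, 18.4% and 21.8% of Myoc-negative cells. Mouse 5 had only 4 Myoc-positive cells and males 9, 13 and 1.

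**Figure D1:**
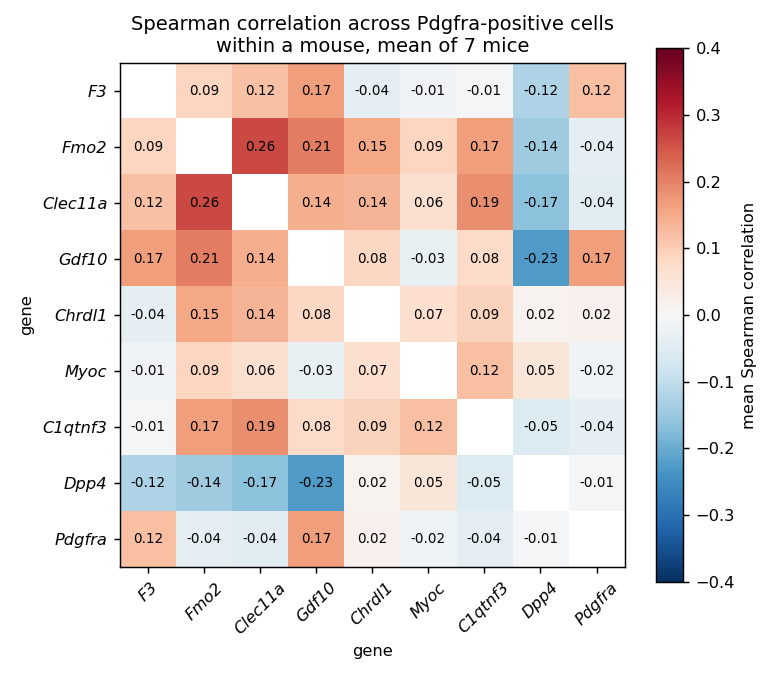
Mean over 7 mice of the within-mouse Spearman correlation (colour and number) between the 7 genes, Dpp4 and Pdgfra across Pdgfra-positive cells. The F3 row stays at or below 0.168 among the members, Fmo2 with Clec11a reaches 0.265, and the Dpp4 row is mostly negative.

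The genes whose pattern was closest to that of F3 were found in most of the cells. Of 8294 genes that were positive in at least 10% of Pdgfra-positive cells and varied in each mouse, the 10 with the highest mean correlation with F3 were Fbln1 (fibulin, a matrix protein, 0.276), Steap4 (a metalloreductase, 0.273), Cygb (cytoglobin, 0.271), Cxcl12 (a chemokine, 0.253), Inmt (a methyltransferase, 0.244), Adh1 (alcohol dehydrogenase, 0.237), Bgn (biglycan, 0.229), Penk (proenkephalin, 0.228), Lpl (lipoprotein lipase, 0.221) and Gpx3 (glutathione peroxidase, 0.215). All but Cxcl12 were above 0 in 7 of 7 mice. Each of these was positive in 77.6% to 99.8% of the cells. Gdf10 held rank 35, Clec11a 123 and Fmo2 248, whereas C1qtnf3, Myoc and Chrdl1 were at ranks 5947, 6378 and 7499. The median over all ranked genes was 0.0094. At the other end stood Igfbp6 (−0.191), Anxa3 (−0.184) and Timp3 (−0.179), and Dpp4 itself had −0.123.

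**Figure D2:**
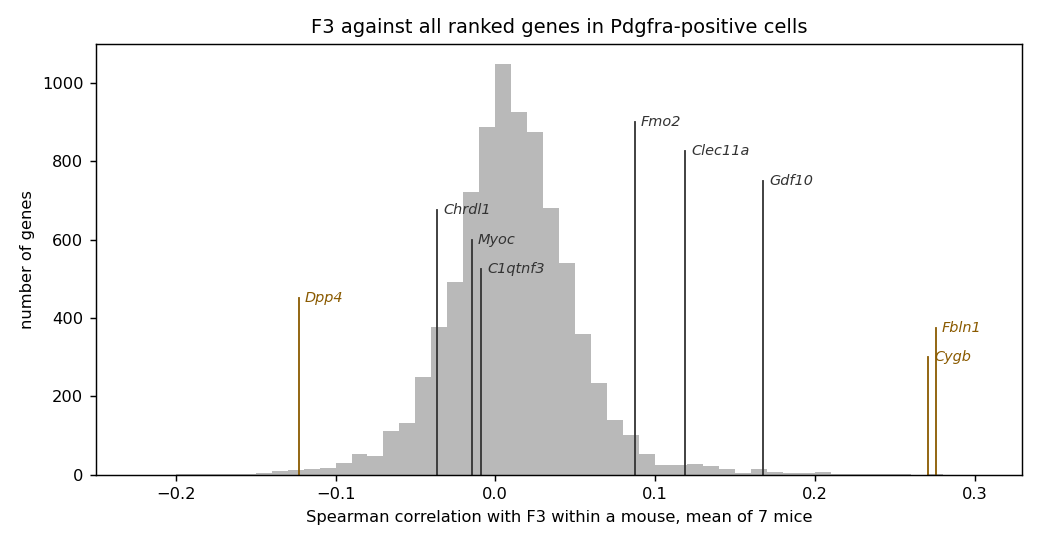
Number of genes (grey bars, width 0.01) by mean within-mouse Spearman correlation with F3 in Pdgfra-positive cells. Gdf10, Clec11a and Fmo2 lie to the right of most genes, Chrdl1, Myoc and C1qtnf3 lie within the central mass, and Fbln1 and Cygb are near the upper end.

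A list of 12 genes linked with F3-bearing stromal cells was examined in the same ranking. It was drawn up with earlier results of these data known, so its place in the ranking is a description only. Of these genes, 10 were ranked, with a median correlation of 0.189 against 0.0094 over all ranked genes. Cygb, Inmt and Bgn are among the 10 genes named above, and Igfbp7 (0.212), Mgp (0.197) and Fgf7 (0.182) ranked 11, 19 and 24. Vit (0.0014), Cilp (−0.021) and Adamts5 (−0.073) did not share this pattern. Of the 7 ranked genes of coagulation and its inhibitors, the closest was the protease gene Plau (0.116, rank 131), followed by Serpine2 (0.080) and Tfpi (0.079), the inhibitor of tissue factor. Their median was 0.014, near that of all ranked genes.

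The closest partners of the other members were taken from the same ranking after the values were seen. Mgp, matrix Gla protein, led for Fmo2 (0.358) and Clec11a (0.344) and came close for C1qtnf3 (0.259), whose first was Mfap4 (0.316). Gdf10 went with Cygb (0.344), Penk (0.323) and complement C7 (0.317). Myoc went with Cilp (0.191) and Sfrp4 (0.155), and Chrdl1 with Itgbl1 (0.195) and Lbp (0.191).

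Few cells held 6 or 7 members at once. Of the 2198 Pdgfra-positive cells, 104 (4.73%) were positive for none of the 7, 728 (33.1%) for 2, 532 (24.2%) for 3, 50 for 6 and 1 for all 7. The 460 cells with 4 or more (20.9%) were not spread evenly over clusters: 182 lay in cluster 3, where 59.3% of the Pdgfra-positive cells were of this kind, and 90 in cluster 9 (65.2%). All 182 in cluster 3 were female and 89 of the 90 in cluster 9 were male. Clusters were formed on all genes, the members included, and C1qtnf3 and Chrdl1 are among the leading genes of clusters 3 and 9, so these counts describe the clusters and do not support them. The other clusters of ASC-like cells held 1.14% to 19.1%.

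The members differed in the clusters where they were highest. Among ASC-like clusters F3 was highest in female clusters 1 (615 CPM) and 6 (552 CPM), ahead of cluster 3 (460 CPM) and male cluster 4 (390 CPM), and was lowest in cluster 5 (100.5 CPM, 50.5% of cells positive). In every cluster of ASC-like cells at least 50.5% of cells were F3-positive. Chrdl1 had 1288 CPM in cluster 9 and 3.25 to 39.6 CPM in the other ASC-like clusters, and C1qtnf3 had 476 CPM in cluster 3 and at most 82.2 CPM elsewhere. Clec11a (247 and 178 CPM) and Fmo2 (225 and 517 CPM) had their highest levels in clusters 3 and 9. Gdf10 was highest in male clusters 9 (2604 CPM) and 7 (1742 CPM), and Myoc in female clusters 3 (585 CPM) and 5 (187 CPM). Like F3, Gdf10 was lowest among ASC-like clusters in cluster 5 (115 CPM, 36.9% of cells positive).

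All 7 members had a higher summed level, in the mean over mice, in Pdgfra-positive cells with Dpp4 under 20 CPM than in the rest. Only 2 of the 7 were so in every mouse, and cell by cell Myoc and Chrdl1 did not run against Dpp4 in the mean (below). The values are log2 ratios of summed CPM, with 1 CPM added to each side. In mouse 2 they also hold the difference between the DPP4-negative and DPP4-positive plates. Clec11a had a mean of 1.60 ± 0.84 (SD, n = 7) and Gdf10 1.41 ± 0.62, above 0 in 7 of 7 mice. F3 had 1.01 ± 0.85, with 441 against 193 CPM in male 4 and 633 against 289 CPM in female 3. In male 1 F3 went the other way, 224 against 273 CPM. Fmo2 (1.25 ± 0.94) and C1qtnf3 (0.84 ± 1.17) were below 0 in male 8 alone, where 34 cells were at or above the limit. The median over 8300 genes was −0.017, and 404 of them (4.87%) were higher in Dpp4-low cells of every mouse.

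Chrdl1 took opposite directions in most mice of the sexes. The log2 ratio was 3.82, 2.48 and 5.95 in males 1, 4 and 8 and −0.81, −2.25 and −0.78 in females 2, 3 and 6/7, with female 5 at 1.46. In male 1 the level was 1303 CPM in Dpp4-low and 91.2 CPM in Dpp4-high cells, and in female 3 it was 2.499 and 15.7 CPM. Some ratios rest on few cells. In male 8 the 34 Dpp4-high cells had 0.468 CPM, under the 1 CPM added, and mice 8, 3 and 5 had 15, 14 and 5 Chrdl1-positive cells. Cell by cell the correlation of Chrdl1 with Dpp4 was weak, at −0.070, −0.057 and −0.062 in males 1, 4 and 8. It was 0.180, 0.135, −0.072 and 0.052 in females 2, 3, 5 and 6/7. Myoc ranged from −1.23 in mouse 5 to 4.06 in mouse 4, and its mean of 0.86 was smaller than its SD of 1.75. With any Dpp4 read as the limit in place of 20 CPM the means were smaller, at 0.52 for F3, 0.56 for Fmo2, 0.89 for Clec11a, 0.66 for Gdf10, 1.04 for Chrdl1 and 0.16 for C1qtnf3, and that of Myoc was −0.56.

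Spearman's correlation of F3 with Dpp4 was −0.402, −0.193, −0.247 and −0.163 in females 2, 3, 5 and 6/7. It was −0.145 in male 4, and 0.157 and 0.131 in males 1 and 8. The value of mouse 2 also holds the difference between its DPP4-negative and DPP4-positive plates. For the other members the mean correlation with Dpp4 over 7 mice was −0.226 for Gdf10, −0.165 for Clec11a, −0.144 for Fmo2 and −0.054 for C1qtnf3. It was 0.015 for Chrdl1 and 0.050 for Myoc, above 0 in 3 and 4 of 7 mice. Cells low in Dpp4 were positive for more members in each mouse, by a mean of 2.17 to 2.90 members against 1.43 to 2.36. In mouse 5, 7 of the 28 Dpp4-high cells held none of the members.

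**Figure D3:**
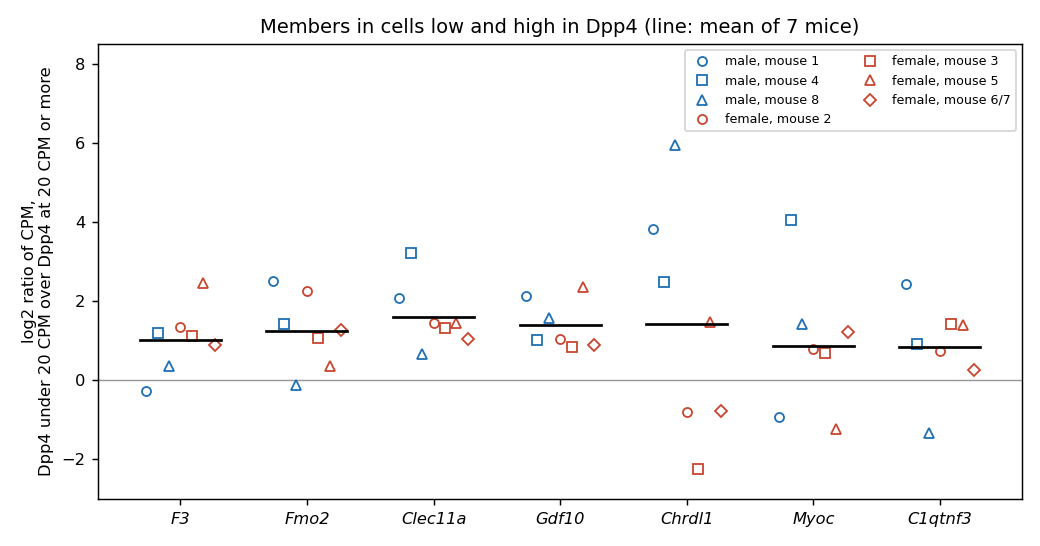
Log2 ratio of each gene's summed CPM in Pdgfra-positive cells with Dpp4 under 20 CPM over those at 20 CPM or more, 1 point per mouse (males blue, females red) with the mean of 7 mice as a line. Clec11a and Gdf10 lie above 0 in 7 of 7 mice, and Chrdl1 runs from −2.25 to 5.95.

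The DPP4 sorts of mouse 2 parted its cells by the protein, with 1 plate per sort and hence no replicate. These are the same cells that gave the ratios of mouse 2 above, so the values are no independent support for them. F3 stood at 491 CPM on the DPP4-negative plate (363 Pdgfra-positive cells) and at 229 CPM on the DPP4-positive plate (369 cells). The shares of positive cells were 86.8% (95% exact binomial interval 82.9 to 90.1%) and 65.04% (59.9 to 69.9%). These intervals cover the cells of each plate only, not the spread between plates or mice, and are no test of the sorts. Fmo2 had 112 against 29.5 CPM, Clec11a 171 against 62.8 CPM, C1qtnf3 125 against 58.05 CPM, Myoc 215 against 129 CPM and Gdf10 599 against 383 CPM. Chrdl1 was lower on the DPP4-negative plate, at 10.8 against 22.0 CPM. Dpp4 itself had 2.40 and 296 CPM.

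The sexes were compared with the Pdgfra-positive cells summed per mouse (3 males, 4 females), to ask which members differ between male and female stem cells. Gdf10, Chrdl1 and Fmo2 were higher in males and C1qtnf3 was higher in females, while F3, Clec11a and Myoc did not pass the test. A call needed an adjusted p-value below 0.05 (edgeR's quasi-likelihood test, two-sided, Benjamini-Hochberg over 11842 genes) and a fold change above 2.6. All 7 members were tested and 4 were called, where 2.37% of all genes were called. Of all genes 1.72% were called higher in males (3 members) and 0.650% higher in females (1 member). As the members were chosen with earlier results of these data known, they are no unselected set beside all genes. For 5 members all mice of one sex lay above those of the other, as for 16.5% of all genes. Values in this comparison are CPM scaled with edgeR's TMM factors, over all gene reads, and log2 fold changes are male minus female. The p-values measure the spread between these mouse ids, of which 6/7 is a pool. Where genes down to 10 counts were also tested, or no gene was left out, Gdf10 alone of the 7 was called.

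Gdf10 was at 1386, 582 and 663 CPM in males 1, 4 and 8 and at 257, 141, 99.8 and 159 CPM in females 2, 3, 5 and 6/7. All males lay above all females, and male 1 stood far above the other males. The log2 fold change was 2.42 (SE 0.42, edgeR adjusted p 0.016), and the call was lost without mouse 5 (2.25) or 6/7 (2.39) and when sums were scaled by library totals only (1.65, with the median of all genes at −0.59). Positive cells differed too, with 1038 to 2654 CPM per male and 554 to 728 CPM per female (not scaled with TMM).

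Chrdl1 was at 489, 55.5 and 47.8 CPM in the males and 8.17, 3.32, 6.21 and 18.2 CPM in the females. The groups did not overlap, but male 1 stood far above the other males. The log2 fold change of 4.46 (SE 0.87, edgeR adjusted p 0.027) fell to 2.52 without mouse 1 and was still called, and it was not called without mouse 2 (4.41) or 5 (4.36). Without mouse 1 its edgeR adjusted p was 0.040.

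Fmo2 was at 120.1, 114 and 137 CPM in the males and 37.9, 14.8, 14.1 and 49.7 CPM in the females. The 3 males lay close together and above each female. The log2 fold change was 2.09 (SE 0.44, edgeR adjusted p 0.036), and the call was lost without mouse 1 (2.10), 4 (2.15), 8 (2.03), 2 (2.23) or 5 (1.87). Without plate 709, the DPP4-positive sort of a female, the value was 1.85 and not called (chosen after the data were seen).

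C1qtnf3 was at 17.9, 12.5 and 4.78 CPM in the males and 48.4, 119, 37.9 and 92.2 CPM in the females, again without overlap. The log2 fold change was −2.67 (SE 0.54, edgeR adjusted p 0.031), and the call was lost without mouse 4 (−2.71), 8 (−2.27) or 6/7 (−2.56). Among cells with Dpp4 under 20 CPM, C1qtnf3 (−2.64) and Fmo2 (1.92) were not called.

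Clec11a was at 24.6, 34.5 and 22.02 CPM in the males and 62.2, 48.1, 61.4 and 48.9 CPM in the females. Though the groups did not overlap, the log2 fold change of −1.03 (SE 0.27, edgeR adjusted p 0.077) met neither limit and was not called. F3 was at 128, 226 and 161 CPM in the males and 190, 278, 114 and 224 CPM in the females, with overlapping groups (−0.23, SE 0.35, edgeR adjusted p 0.74). Myoc was at 23.3, 20.6 and 0.886 CPM in the males and 90.3, 308, 1.95 and 45.9 CPM in the females. Its log2 fold change of −2.90 had an SE of 1.34 (edgeR adjusted p 0.25), and it was −1.62 without mouse 3. A miss of the threshold does not show that the sexes were alike.

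**Figure D4:**
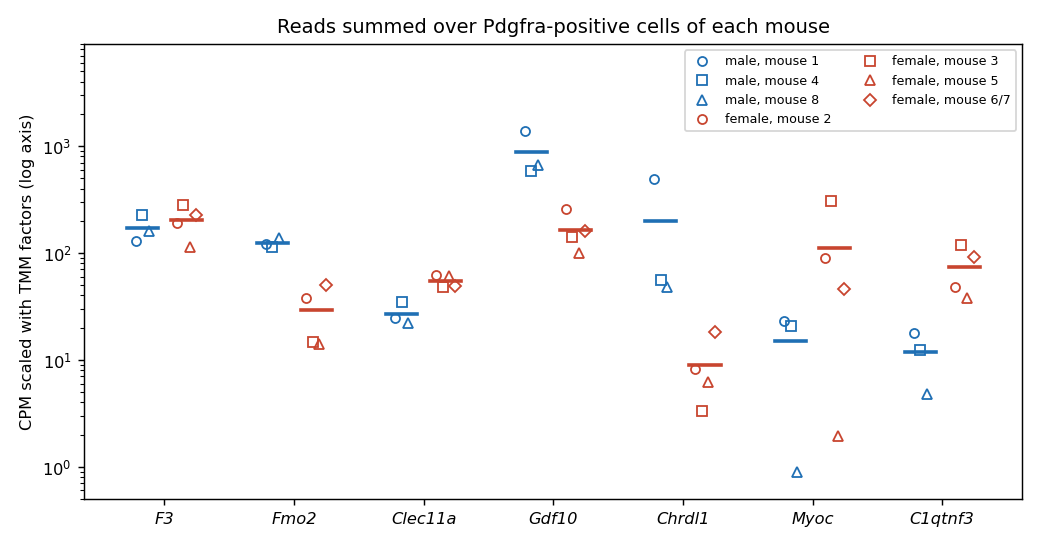
CPM scaled with TMM factors (log axis) of the 7 genes in summed Pdgfra-positive cells, 1 point per mouse with the mean of each sex as a line. Males (blue) and females (red) do not overlap for Gdf10, Chrdl1, Fmo2, Clec11a and C1qtnf3, and male 1 stands at 489 CPM for Chrdl1.

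Marker levels of other cells in the same sums were compared beside these values. The 4 VSMC (vascular smooth muscle cell) markers summed to 43.8 to 527 CPM in males and 34.1 to 119 CPM in females, the 10 adipocyte genes to 24.4 to 186 against 25.9 to 65.3 CPM and the 4 pericyte markers to 3.12 to 105 against 7.21 to 23.7 CPM. The highest value of each of these lists was that of male 1, which also had the highest Gdf10 and Chrdl1 levels. The ranges of the sexes overlapped for each list, and their part in the member values was not tested. The median mitochondrial share was 0.216% to 0.366% in males and 0.505% to 1.13% in females, without overlap, and its part was not tested either.

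Genes around the members were examined in the same test, as lists beside the 7. Over all genes tested the median log2 fold change was 0.04. Of the BMP and GDF signalling genes, 22 of 31 were tested, with a median of 0.15, and Bmp7, a BMP ligand, was called alone, at 31.1 ± 8.24 CPM in males against 2.58 ± 0.431 CPM in females (log2 fold change 3.59, SE 0.30, edgeR adjusted p 2.6e-04). Of the tissue factor pathway 10 of 19 were tested (median 0.32), and Serpine2, a protease inhibitor, was called at 183 against 36.9 CPM (2.31, SE 0.25, edgeR adjusted p 0.0012). The list linked with F3-bearing cells had 11 of 12 tested (median 0.34), with Adamts5, a matrix protease, called at 443 against 151 CPM (1.55, SE 0.34, edgeR adjusted p 0.042). The call of Adamts5 was lost without mouse 4, 8, 2, 5 or 6/7 (1.22 to 1.58). Bgn (1.45) and Mgp (−1.11) of that list were not called, though Bgn was with edgeR's likelihood ratio test (adjusted p 0.020) and with DESeq2 (1.47, adjusted p 0.0065). Of the relatives of the members 18 of 22 were tested (median 0.46), and Clec1a was called, at 3.21 CPM in females and 0.159 CPM in males (−4.34, SE 0.64, edgeR adjusted p 0.0073). Its male level lay near 0, so it met the count filter only through the females, where it was high. Its call is therefore given as a description. Each of these 4 lists thus held 1 called gene, or 4.55%, 10%, 9.09% and 5.56% of those tested, where 2.37% of all genes were called, and in lists this short a single gene sets the share.

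The neighbours of Fmo2 and Myoc on chromosome 1 did not pass the test. Of 12 genes, 8 were tested, with a median of −0.03. Fmo1, 7706 bases from Fmo2 on the same strand, averaged 128 ± 38.6 CPM over the males and 64.7 ± 20.3 CPM over the females (0.98, SE 0.32, edgeR adjusted p 0.14), without overlap between the mice. Vamp4 was lower in males in value (−0.95, SE 0.31, edgeR adjusted p 0.14), and the other 6 lay between −0.60 and 0.40. Fmo2 and Myoc themselves thus had values of opposite sign, 2.09 and −2.90, of which the first was called.

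Outside ASC-like cells, Fmo2 was the member with the widest spread over classes. These classes come from clusters of all genes, and the levels are descriptions. In EC-like cells Fmo2 had 36.9 and 54.6 CPM in males 1 and 8 and 126, 156 and 119 CPM in females 2, 5 and 6/7. The mean of 98.5 ± 50.5 CPM (n = 5 mice) was close to the 126 ± 83.5 CPM of ASC-like cells (n = 7), and 18.7% of EC-like against 30.9% of ASC-like cells were positive. The 3 females were above both males in EC-like cells, the reverse of the order in Pdgfra-positive cells. That difference was not tested. Pericyte-like cells had 115 and 57.1 CPM of Fmo2 in mice 1 and 2, and macrophage-like cells at most 0.525 CPM.

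F3 was at 0 to 8.501 CPM in EC-like cells of 5 mice, against 233 to 542 CPM in ASC-like cells, and at most 0.302 CPM in macrophage-like cells. The 19 epithelial-like cells of mouse 1 had 44.5 CPM, with 21.1% positive. Clec11a, Myoc and C1qtnf3 reached at most 0.918 CPM per mouse in EC-like, pericyte-like, VSMC-like or macrophage-like cells. Gdf10 had 41.2 CPM in pericyte-like and 23.9 CPM in VSMC-like cells of mouse 1, with 45.5% and 52.6% of cells positive, but 0 in the 13 pericyte-like cells of mouse 2. Mouse 1 also had the highest Gdf10 level in ASC-like cells, 2580 CPM, and its part in these values was not tested. Chrdl1 was at 48.7 CPM in EC-like cells of mouse 2 and 0.100 to 3.06 CPM in those of the other 4 mice. An unnamed cluster of 122 cells with endothelial markers but led by adipocyte genes had 132 CPM of Chrdl1, from 7.38% of its cells.

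**Figure D5:**
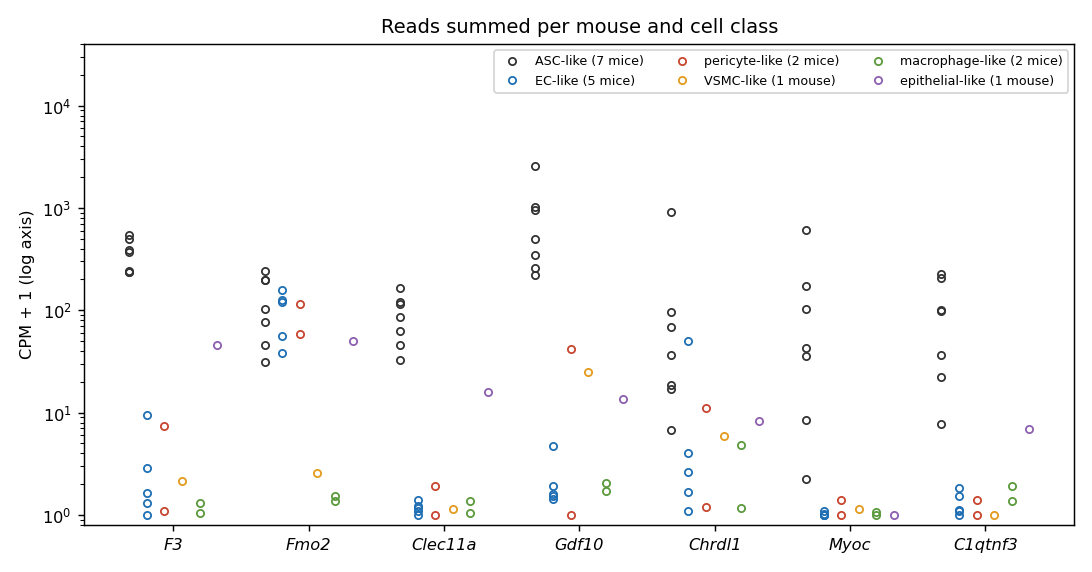
CPM plus 1 (log axis) of the 7 genes per mouse and cell class, 1 point for each mouse with at least 10 cells of the class. Fmo2 overlaps between ASC-like, EC-like and pericyte-like cells, whereas F3 and Clec11a are far higher in ASC-like cells than in EC-like, pericyte-like or macrophage-like cells.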

How the data were processed

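Reads of single sorted cells (Smart-seq2) were aligned by the authors with STAR to mm10 and ERCC sequences, quantified per gene with Salmon and imported with tximport. Tool versions and the use of strand are not given in the sources used here. The deposited table gives each gene's raw read counts in each cell as whole numbers, after the authors' removal of poor and mixed cells. ERCC rows (1.98% of reads) were left out, and no column lacked a labelled plate. The members and lists were chosen with earlier results of these data known.

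CPM are scaled to the gene reads outside 11 ribosomal RNA rows, a choice made after the data were seen, and CPM of the sex test are TMM-scaled on all gene reads. Shares were also taken after thinning each cell to 100000 reads, with shallower cells left out. Intervals are exact binomial (95%). Classes came from Seurat 5.3.0 clusters named "X-like" by fixed markers, without a doublet caller. A cluster led by adipocyte genes and one rich in mitochondrial reads stayed unnamed, by limits set after the clusters were seen.

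Counts of Pdgfra-positive cells were summed per mouse id, and genes with over 600 counts in at least 2 sums were tested with edgeR 4.0.16 (quasi-likelihood, TMM, two-sided, Benjamini-Hochberg), at the call limits of the study. On simulated counts for this comparison (11842 genes), 191 of 200 genes changed 8-fold were recovered (95.5%), with 10 wrong calls. Smaller changes, as estimated for every member but Chrdl1, were not simulated, so recovery at those sizes is not known. Alternatives covered the test (DESeq2 1.42.0), scaling, count filter, cell selection, limits and leaving out each mouse. Named genes were the members, Pdgfra and Dpp4, the 10 genes closest to F3, list genes that were called and up to 4 others by level, and neighbours on chromosome 1; partners of other members, the genes lowest in correlation with F3 and other list genes were named after their values were seen. Scripts ran under Python 3.11.15 (pandas 2.3.3, scipy 1.17.1, numpy 2.4.6, matplotlib 3.10.9) and R 4.3.3. Protein sequences were not used here.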

Additional observations from a re-analysis of the deposited data

Results flagged for a closer look

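The share of F3-positive cells among thinned Pdgfra-positive cells of female mouse 5, 60.9%, stood apart from the other females (76.5% to 79.5%). By Dixon's rule, its gap to the next value was 0.843 of the range of the 4 females. It was the only value so flagged among 28 groups examined. Chance alone flags about 1 group in 20, so a single flag among 28 groups does not exceed chance. Mouse 5 had the fewest Pdgfra-positive cells (94), and the part of cell number in the value was not tested.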

How the results depend on the processing

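In the comparison of the sexes 281 genes were called. This number was 650 with edgeR's likelihood ratio test, 699 with DESeq2, 515 with library totals only (110 higher in males and 405 in females, median −0.59), 185 without a count filter, 154 without the DPP4-sorted plates (which is the fit without mouse 2) and 104 to 572 when a mouse was left out. With library totals outside ribosomal RNA it was 201, with 105 higher in males and 96 in females and a median of −0.22. Of the members 1 was called with at least 10 counts, 1 without a filter, 2 in cells with Dpp4 under 20 CPM, 2 without the DPP4-sorted plates and 1 to 4 when a mouse was left out. No member changed sign in any setting of this comparison. DESeq2 gave no adjusted p for Chrdl1.

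The log2 fold change of Fmo2 was not called at 1.82 (library totals outside ribosomal RNA), 1.39 (library totals only), 2.11 (at least 10 counts), 2.10 (no filter), 1.92 (Dpp4 under 20 CPM), 2.23 (without the DPP4-sorted plates) and 1.85 (without plate 709). Gdf10 was not called at 1.65 and Myoc was called at −3.49 with library totals only. Chrdl1 was not called at 4.39 with at least 10 counts, 4.39 without a filter and 4.41 without the DPP4-sorted plates. C1qtnf3 was not called at −2.70 with at least 10 counts, −2.70 without a filter and −2.64 with Dpp4 under 20 CPM. More genes were tested with the lower filters, and the estimates moved a little as well. The cause of these changes was not tested. Leaving out a mouse gave 1.87 to 2.45 for Fmo2, 1.91 to 2.71 for Gdf10, 2.52 to 5.05 for Chrdl1, −3.11 to −2.27 for C1qtnf3, −3.38 to −1.62 for Myoc, −1.23 to −0.89 for Clec11a and −0.47 to −0.04 for F3.

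With any Dpp4 read as the limit the log2 ratio of Dpp4-low over Dpp4-high cells was 0.66 for Gdf10, 0.52 for F3, 0.56 for Fmo2, 0.89 for Clec11a, 0.16 for C1qtnf3 and −0.56 for Myoc. F3 stood at 212 CPM in ASC-like cells relative to all gene reads. With classes taken cell by cell, Gdf10 stood at 7.29 CPM in EC-like cells, against 1.23 CPM with classes from clusters. In VSMC-like cells, from 1 mouse, Gdf10 then had 168 CPM and Chrdl1 114 CPM, against 23.9 and 4.94 CPM with classes from clusters. Levels in VSMC-like cells thus depend on how the class is drawn. No paired analysis was possible because the sexes share no mouse number. The 94 Pdgfra-positive cells of mouse 5 limit the precision of its shares.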
